A study of Homo sapiens with 12 samples.

Results

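The replication-independent histone variants were followed in HL60 cells, which come from a human acute myeloid leukemia, as 9 genes chosen by symbol from the raw count table, out of 59251 genes listed. They were H3-3A and H3-3B (histone H3.3), H2AZ1 and H2AZ2 (H2A.Z), H2AX, H2AJ, MACROH2A1 and MACROH2A2 (macroH2A), and the linker histone gene H1-10. The cells were non-treated or received all-trans retinoic acid (ATRA, 1 µM), palbociclib, a CDK4/6 inhibitor (CDK4/6i, 1 µM), or the 2 drugs together (CDK4/6i+ATRA) over 48 h. Libraries for RNA-Seq were made from extracted total RNA, 3 per group and 12 in all (whether poly(A) RNA was selected is not given in the sources used here), which the labels call biological replicates of this 1 line without naming separate cultures, so that p-values measure the spread between these libraries. Of the 9 genes, 7 had counts and passed the expression filter (13318 genes passed in all), and H2AJ and MACROH2A2 had no count in any library.

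Most histone protein is made from replication-dependent genes, whose mRNAs end in a stem-loop in place of a poly(A) tail and accumulate in S phase. Histone variants are encoded by separate genes, mostly with introns and polyadenylated mRNAs, that can be expressed outside S phase and that replace the canonical histones at chosen sites. H3.3 is placed at active genes by the HIRA complex and at heterochromatin by DAXX and ATRX, H2A.Z is exchanged at promoters by SRCAP and EP400, H2AX is phosphorylated around DNA breaks, macroH2A carries a large extra domain and is enriched in silent chromatin, and H1.10 is a linker histone. ATRA drives myeloid differentiation, and palbociclib blocks the kinases that release E2F for entry into S phase.

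Total counts per library ranged from 12230923 to 18679544, and those of the CDK4/6i+ATRA group were at most 14415276. Values are CPM, read counts relative to the total of their library, scaled by the trimmed mean of M values (TMM), a scaling that centres the bulk of genes. Without that scaling, by library size alone, the median log2 fold change of all tested genes moved by -0.27 to -0.32 in the comparisons of CDK4/6i+ATRA with another group and in the interaction, and directions that turn with it are given where they occur. The mean of CD38, a gene known to be raised by retinoic acid, was 0.179 CPM in non-treated, 399 CPM in ATRA-treated, 0.188 CPM in CDK4/6i-treated and 405 CPM in CDK4/6i+ATRA-treated cells. Of 7 myeloid markers, MPO, CTSG, CD33 and SPI1 were detected, and ELANE, PRTN3 and AZU1 were listed at 0. Each of the latter 3 was listed on 2 contigs, whereas none of the 9 variant genes was listed on more than 1 (4468 genes were, 2963 of them at 0). Of 11 markers of other cells, 4 were at 0, among them MS4A1, HBB and EPCAM, and the summed level of the list was 41.0 to 45.7 CPM in non-treated, 55.0 to 58.3 in ATRA-treated, 55.8 to 56.6 in CDK4/6i-treated and 29.4 to 31.8 in CDK4/6i+ATRA-treated libraries. Most of the 9115 counts of this list came from PECAM1 (4890) and CD79A (3771), and CD3E had 409. The part of these markers in the results was not tested. In bulk RNA, a change in the share of cells that express a gene and a change in RNA per cell cannot be told apart.

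**Figure D1:**
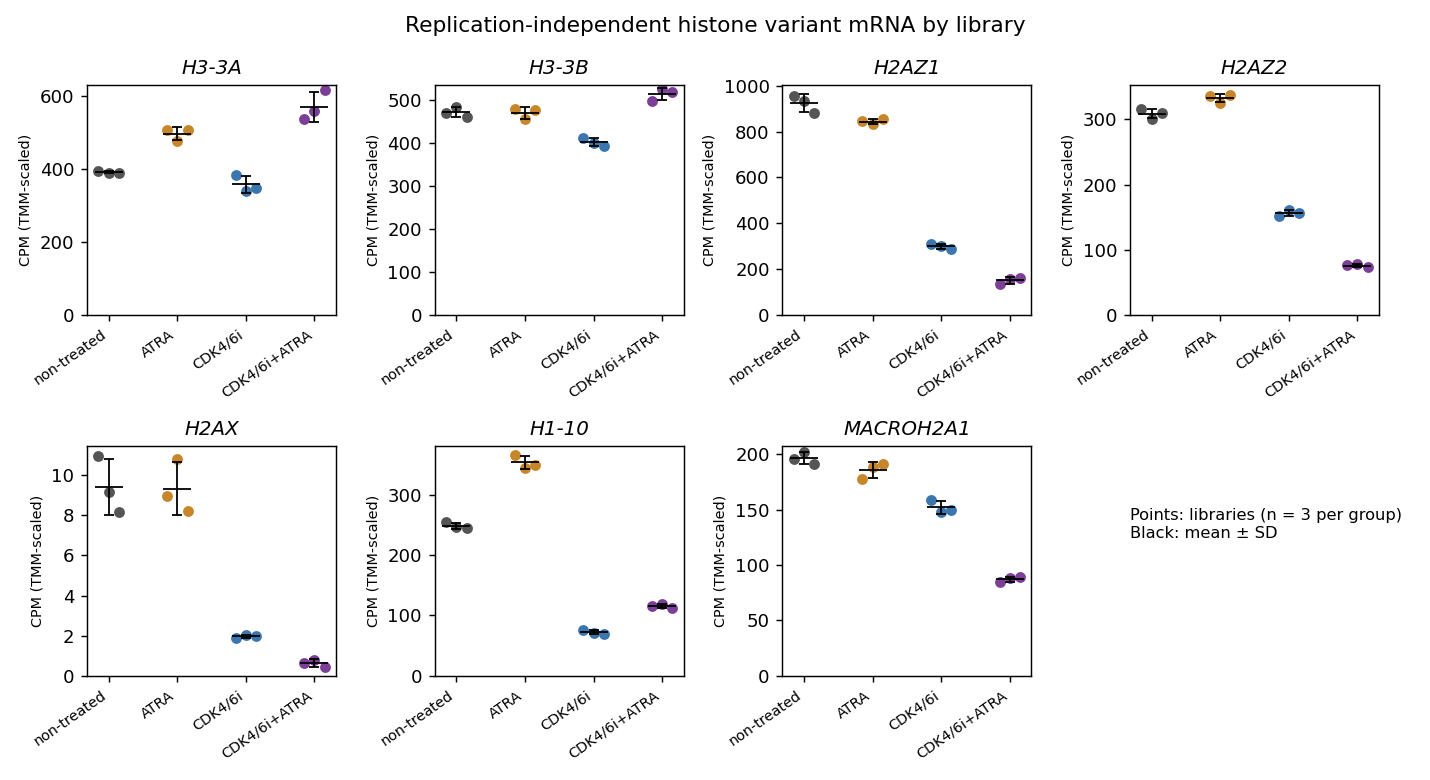
TMM-scaled CPM (y axes, from 0) of the 7 detected variant genes in each of the 3 libraries per group (points), with the group mean and SD in black. H2AZ1, H2AZ2, H2AX and MACROH2A1 were lowest in all 3 CDK4/6i+ATRA libraries, H1-10 was lowest with CDK4/6i alone, and H3-3A was highest with CDK4/6i+ATRA, an order against ATRA alone that turned under scaling by library size.

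The promoters are shown because the genes fell into different patterns across the same drugs. RefSeq windows of 300 bases around the transcription start site (GRCh38.p14) were found for all 9 genes, and the window nearest to the upstream end of the deposited gene model was used for each. Capitals mark matches on either strand to the CCAAT box, the TATA box core TATAAA, the cell cycle homology region TTTGAA, the E2F motifs written TTGGCGC or, in another form, TTCCCGC, and the cyclic AMP response core TGACGT. The sequences are written 5′ to 3′ on the strand of the gene.
H3-3A, chr1:226061581-226061880, plus strand: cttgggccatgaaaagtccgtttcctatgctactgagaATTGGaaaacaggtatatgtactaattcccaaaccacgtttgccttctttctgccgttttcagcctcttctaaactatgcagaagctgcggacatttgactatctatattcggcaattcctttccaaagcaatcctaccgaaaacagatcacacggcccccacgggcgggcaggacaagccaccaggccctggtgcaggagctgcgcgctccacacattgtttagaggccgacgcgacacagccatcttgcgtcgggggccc
H3-3B, chr17:75779730-75780029, minus strand: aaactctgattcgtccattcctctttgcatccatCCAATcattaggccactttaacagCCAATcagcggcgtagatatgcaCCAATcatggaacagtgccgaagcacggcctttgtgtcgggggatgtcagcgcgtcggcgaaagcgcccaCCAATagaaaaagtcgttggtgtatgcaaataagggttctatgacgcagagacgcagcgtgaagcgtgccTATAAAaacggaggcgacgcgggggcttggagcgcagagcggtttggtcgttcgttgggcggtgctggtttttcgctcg
H2AZ1, chr4:99950226-99950525, minus strand: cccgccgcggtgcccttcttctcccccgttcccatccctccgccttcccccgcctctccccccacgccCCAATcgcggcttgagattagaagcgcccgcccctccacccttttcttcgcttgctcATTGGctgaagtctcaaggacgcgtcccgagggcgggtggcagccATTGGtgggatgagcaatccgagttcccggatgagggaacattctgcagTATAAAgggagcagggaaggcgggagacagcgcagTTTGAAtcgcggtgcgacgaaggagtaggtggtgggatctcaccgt
H2AZ2, chr7:44848038-44848337, minus strand: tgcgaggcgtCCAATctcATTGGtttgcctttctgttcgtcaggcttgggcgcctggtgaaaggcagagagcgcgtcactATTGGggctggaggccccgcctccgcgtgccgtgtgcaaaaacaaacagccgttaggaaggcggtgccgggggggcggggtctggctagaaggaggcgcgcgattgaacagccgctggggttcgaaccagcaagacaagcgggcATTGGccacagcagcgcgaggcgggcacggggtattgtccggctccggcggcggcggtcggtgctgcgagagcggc
H2AX, chr11:119095416-119095715, minus strand: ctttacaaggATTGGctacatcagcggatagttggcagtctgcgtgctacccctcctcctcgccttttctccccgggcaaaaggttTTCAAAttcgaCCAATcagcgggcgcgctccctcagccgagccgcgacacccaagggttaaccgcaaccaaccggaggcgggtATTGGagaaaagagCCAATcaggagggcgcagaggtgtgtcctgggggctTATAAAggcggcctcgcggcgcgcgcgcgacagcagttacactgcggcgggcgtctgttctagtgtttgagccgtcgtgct
H1-10, chr3:129316237-129316536, minus strand: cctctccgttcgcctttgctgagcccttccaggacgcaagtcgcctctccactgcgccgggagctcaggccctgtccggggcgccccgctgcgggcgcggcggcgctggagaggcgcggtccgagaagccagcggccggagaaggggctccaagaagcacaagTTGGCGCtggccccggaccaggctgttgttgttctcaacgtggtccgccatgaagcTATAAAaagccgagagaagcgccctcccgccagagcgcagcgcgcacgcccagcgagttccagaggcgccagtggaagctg

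The CCAAT motif was present in 7 of the 9 windows, against 34.6% of all 35116 RefSeq windows, and 5 windows held it at least 3 times, against 3.26%. H3-3B, H2AZ2 and H2AX each held it 4 times (0.991% of all windows held it at least 4 times), and H2AZ1 held it 3 times. TATAAA stood 31 bases upstream of the start site of H2AZ1, H2AX and H1-10 and 29 bases upstream of that of H3-3B, and 11.5% of all windows held it. TTTGAA was found in H2AZ1 at base 5 after the start site and in H2AX at -164 (15.2% of all windows). TTGGCGC was found in H1-10 alone of the 9 windows, at -87 (3.04% of all windows), and TTCCCGC (6.55%) and TGACGT (7.98%) were in none of these 9. H3-3A had 4 RefSeq windows and MACROH2A1 had 2, and one of the unused H3-3A windows held TTCCCGC, so that what was found depends on the window chosen. These matches are descriptions of the windows.

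H3-3A rose with ATRA and with CDK4/6i+ATRA, while both H3.3 genes were slightly lower with CDK4/6i alone. H3-3A and H3-3B encode the same H3.3 protein from separate loci. H3-3A lies on chromosome 1 at 226061831-226072019 (hg38, plus strand, 7 exon blocks of 1492 bases in all). The level of H3-3A was 393, 389 and 388 CPM in the 3 non-treated libraries, 505, 475 and 506 with ATRA, 383, 340 and 348 under CDK4/6i and 536, 558 and 615 under both drugs. All ATRA and CDK4/6i+ATRA libraries lay above all non-treated libraries, and all CDK4/6i libraries lay below them. H3-3A rose 1.27-fold with ATRA (log2 fold change 0.34, SE 0.043, adjusted p = 9.98e-10, edgeR quasi-likelihood test with Benjamini-Hochberg adjustment over 13318 genes) and 1.46-fold with CDK4/6i+ATRA (log2 fold change 0.55, SE 0.044, adjusted p = 4.11e-16, or 0.28 by library size alone). With CDK4/6i alone its log2 fold change was -0.13 (SE 0.044, adjusted p = 0.012), and this call was lost without CDK4/6i replicate 2 (adjusted p = 0.122) or CDK4/6i replicate 3 (adjusted p = 0.0738).

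H3-3B lies on chromosome 17 at 75776434-75779779 (minus strand, 4 exon blocks of 2705 bases). The level of H3-3B was 471, 484 and 462 CPM in non-treated libraries, 480, 455 and 478 with ATRA, 412, 400 and 393 under CDK4/6i and 499, 525 and 519 under both drugs. Only the ATRA libraries overlapped the non-treated ones, and no group mean was more than 1.28-fold from another. Its log2 fold change was -0.0038 with ATRA (SE 0.037, adjusted p = 0.935, 95% interval -0.079 to 0.072) and it fell with CDK4/6i (log2 fold change -0.23, SE 0.038, adjusted p = 6.24e-07). With CDK4/6i+ATRA its log2 fold change was 0.12 (SE 0.038, adjusted p = 0.00269), which turned to -0.14 (adjusted p = 0.000141) by library size alone, where the median of all genes was -0.25, and which was not called with no filter (0.015, adjusted p = 0.89).

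The balance of the 2 H3.3 genes shifted with ATRA. Per kb of gene model, H3-3A supplied 60.0% ± 0.598 (SD, n = 3) of the counts of the pair in non-treated cells, 65.6% ± 0.187 in ATRA-treated cells, 61.7% ± 1.07 under CDK4/6i and 66.7% ± 1.32 under both drugs (SD, n = 3 each). A share within a library does not depend on the scaling between libraries, but it does depend on the lengths of the gene models. It also depends on how reads that H3-3A shares with a near-identical copy, described below, were assigned. The shares were not recomputed with that copy. Without division by length H3-3A was the lower of the pair in non-treated cells, at 390.0 against 472 CPM. The spread between the 4 groups was the largest of all arrangements of the 12 libraries over the groups (exact permutation test, p = 6.49e-05, the smallest it can give, and 0.00013 adjusted over the 2 pairs tested). Both groups that received ATRA lay above both groups that did not, with no overlap between libraries. For the share of raw counts, the 95% Wilson interval of each library was within ± 0.922 percentage points, which covers counting error only. The sum of both genes per kb was 436 ± 4.52 CPM per kb in non-treated, 506 ± 17.0 in ATRA-treated, 388 ± 18.6 in CDK4/6i-treated and 572 ± 30.6 in CDK4/6i+ATRA-treated cells (SD, n = 3). Unlike the share, this sum depends on the scaling, and its rise from ATRA alone to both drugs did not hold by library size alone. For that step each gene then had a negative log2 fold change, -0.10 for H3-3A and -0.18 for H3-3B, where the median of all genes was -0.26.

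H3-3A reads could be split with a near-identical copy. Of the 50-base stretches in H3-3A exons, 70.3% also occurred in H3P6, a pseudogene on chromosome 2, which had 6271 counts in all libraries against 83591 for H3-3A. H3P6 had 29.4 CPM in non-treated, 35.9 in ATRA-treated, 27.5 in CDK4/6i-treated and 43.6 in CDK4/6i+ATRA-treated cells, the order of H3-3A itself. With the counts of both loci summed, an alternative chosen after the data were seen, the log2 fold changes of H3-3A were 0.34 with ATRA, -0.12 under CDK4/6i and 0.55 under both drugs. For H3-3B, H2AZ1 and H2AZ2, 7.85%, 7.09% and 1.90% of such stretches occurred in other listed members of their families.

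Most genes for H3.3 deposition fell with CDK4/6i+ATRA. Of 8 such genes, all tested, 1 rose and 6 fell, and their median log2 fold change was -0.63, that of all tested genes being 0.018. Of all tested genes 41% rose and 40.7% fell in this comparison. DEK, a chromatin protein that acts as an H3.3 chaperone, fell from 427 ± 8.81 CPM in non-treated to 84.3 ± 6.69 CPM in CDK4/6i+ATRA-treated cells (SD, n = 3, log2 fold change -2.34). HIRA, the core of the complex that places H3.3 at active genes, fell from 161 ± 7.85 to 56.6 ± 3.62 CPM (log2 fold change -1.51). DAXX, the H3.3 chaperone of heterochromatin, was listed on 5 contigs and was counted at 2.14 ± 0.393 CPM in non-treated and 1.28 ± 0.880 CPM in CDK4/6i+ATRA-treated cells, whose libraries overlapped (SD, n = 3, log2 fold change -0.75, SE 0.34, edgeR adjusted p = 0.038). The gene that rose was ATRX, the partner of DAXX, from 97.5 to 137 CPM (log2 fold change 0.49), named after its value was seen. CABIN1, a subunit of the HIRA complex, was listed on 2 contigs and fell from 110 ± 4.69 to 66.3 ± 4.63 CPM (log2 fold change -0.74). With ATRA alone 2 of the 8 rose and 3 fell, a share called near the 67.6% of all tested genes, and with CDK4/6i alone 1 rose and 5 fell, against 28.3% and 27.9% of all tested genes.

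H2A.Z mRNA fell steeply with CDK4/6i and further with both drugs. H2AZ1 and H2AZ2 encode 2 nearly identical H2A.Z proteins. H2AZ1 lies on chromosome 4 at 99948088-99950275 (minus strand, 5 exon blocks of 866 bases). The level of H2AZ1 was 957, 933 and 882 CPM in non-treated libraries, 846, 832 and 853 with ATRA, 312, 299 and 289 under CDK4/6i and 135, 157 and 162 under both drugs. The 4 groups did not overlap. H2AZ1 fell to 0.325 of its non-treated level with CDK4/6i (log2 fold change -1.62, SE 0.044, adjusted p = 5.32e-34) and to 0.164 with CDK4/6i+ATRA (log2 fold change -2.61, SE 0.048, adjusted p = 2.42e-42). With ATRA alone its log2 fold change was -0.13 (SE 0.043, adjusted p = 0.00603), a call that was lost without non-treated replicate 1 (adjusted p = 0.0512).

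H2AZ2 lies on chromosome 7 at 44826889-44848126 (minus strand, 6 exon blocks of 6340 bases). The level of H2AZ2 was 316, 301 and 309 CPM in non-treated libraries, 336, 325 and 337 with ATRA, 152, 161 and 156 under CDK4/6i and 76, 77.6 and 73.5 under both drugs. Here too the 4 groups did not overlap, but ATRA lay above and not below non-treated cells. H2AZ2 fell to 0.506 of its non-treated level with CDK4/6i (log2 fold change -0.98, SE 0.037, adjusted p = 5.07e-28) and to 0.245 with CDK4/6i+ATRA (log2 fold change -2.03, SE 0.042, adjusted p = 5.01e-40). Its rise with ATRA alone was small (log2 fold change 0.11, SE 0.036, adjusted p = 0.00706) and was lost without non-treated replicate 2 (adjusted p = 0.0651) and with no filter on low counts (adjusted p = 0.105).

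Within the H2A.Z pair, H2AZ1 supplied 95.6% ± 0.178 of the counts per kb in non-treated cells, 94.9% ± 0.0419 in ATRA-treated cells, 93.4% ± 0.350 under CDK4/6i and 93.6% ± 0.648 under both drugs (SD, n = 3 each). The groups differed (exact permutation test over 12 libraries, p = 0.00104, adjusted p = 0.00104), and the CDK4/6i and CDK4/6i+ATRA libraries overlapped each other while lying below the other groups. H2AZ1 gave most H2A.Z mRNA in each group, at a ratio to H2AZ2 per kb of 21.9 ± 0.920 in non-treated and 14.7 ± 1.55 in CDK4/6i+ATRA-treated cells (SD, n = 3). These ratios rest on the length of the H2AZ2 model, and without division by length the levels in non-treated cells were 924 and 309 CPM. The sum of the pair was 1115 ± 44.7 CPM per kb in non-treated, 1027 ± 13.6 in ATRA-treated, 371 ± 12.4 in CDK4/6i-treated and 187 ± 16.2 in CDK4/6i+ATRA-treated cells.

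**Figure D2:**
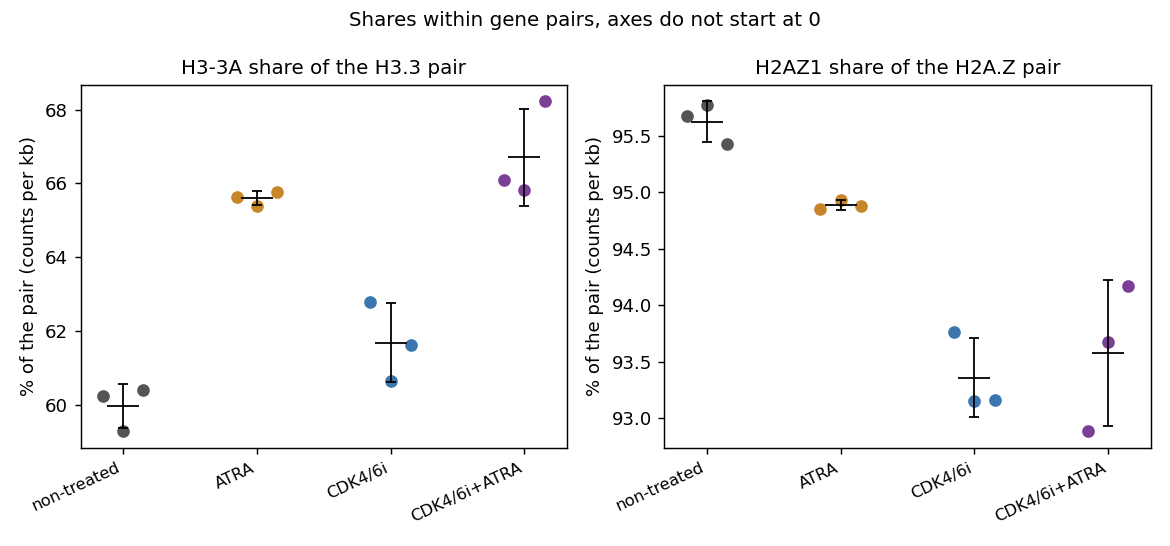
Percent of the counts per kb of each gene pair (y axes, which do not start at 0) taken by H3-3A (left) and H2AZ1 (right) in the 3 libraries per group (points), with mean and SD in black. The H3-3A share lay between 59.3% and 62.8% without ATRA and between 65.4% and 68.2% with ATRA, and the H2AZ1 share was below 94.2% in all libraries that received CDK4/6i.

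Of 24 genes for H2A.Z exchange, all tested, 5 rose and 13 fell with CDK4/6i+ATRA (3 and 17 by library size alone), with a median log2 fold change of -0.22. Of all tested genes 81.7% were called in this comparison. RUVBL1 and RUVBL2, the AAA+ ATPases shared by the SRCAP, EP400 and INO80 complexes, fell to 36.6 ± 0.148 CPM from 216 ± 3.90 (log2 fold change -2.56) and to 62.0 ± 4.82 CPM from 321 ± 6.75 (log2 fold change -2.37). RUVBL1 was listed on 2 contigs. SRCAP itself rose (log2 fold change 0.33) and EP400 was not called (-0.039, edgeR adjusted p = 0.458), both named after their values were seen. ACTL6A, an actin-related subunit of several remodelers, fell from 171 ± 9.42 to 33.1 ± 1.24 CPM, and YEATS4, an acetyl-lysine reader in the SRCAP and EP400 complexes, from 35.4 ± 1.08 to 8.10 ± 0.894 CPM (SD, n = 3). With ATRA alone 5 rose and 11 fell (67.6% of all tested genes were called), with log2 fold changes of -1.18 for RUVBL1 and -1.12 for RUVBL2, and with CDK4/6i alone 1 rose and 15 fell (28.3% and 27.9% of all tested genes did).

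H2AX had the steepest fall of the variant genes and the fewest counts among those detected. H2AX is a single-exon gene on chromosome 11 at 119093874-119095465 (minus strand, 1592 bases). Its raw counts were 182, 146 and 145 in non-treated libraries, 145, 185 and 149 with ATRA, 36, 33 and 34 under CDK4/6i and 7, 9 and 5 under both drugs, or means of 9.42 ± 1.40, 9.32 ± 1.32, 1.96 ± 0.0798 and 0.619 ± 0.196 CPM (SD, n = 3). The non-treated and ATRA libraries overlapped, and each group with CDK4/6i stood clear of the others. H2AX fell by 2.26 on the log2 scale with CDK4/6i (SE 0.18, adjusted p = 8.64e-16) and by 3.92 with CDK4/6i+ATRA (SE 0.25, adjusted p = 1.32e-19). With ATRA its log2 fold change was -0.015 (SE 0.14, adjusted p = 0.931, 95% interval -0.29 to 0.26).

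These H2AX counts come with a limit of the gene model. In the deposited annotation 1394 of its 1592 bases also belong to DPAGT1, an enzyme of N-glycosylation on the same strand, and only the 198 bases at 119094262-119094459 are its own. The sources used here do not state how reads in shared bases were counted. H2AX is also the only variant gene in which the histone 3′ stem-loop was found (63 of 63 replication-dependent genes searched had it), as 16 bases at 119094898-119094913, shown for its place relative to the bases counted.
H2AX stem-loop: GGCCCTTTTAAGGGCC

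The 198 unshared bases began 438 bases downstream of that stem-loop. H2AX is known to give a short transcript that ends at the stem-loop and a longer, polyadenylated one that runs past it. DPAGT1 had 55.3 ± 2.05 CPM in non-treated, 27.7 ± 0.479 in ATRA-treated, 53.5 ± 3.27 in CDK4/6i-treated and 15 ± 0.518 in CDK4/6i+ATRA-treated cells (SD, n = 3), and its difference between CDK4/6i-treated and non-treated cells was not called (log2 fold change -0.047, adjusted p = 0.497). With H2AX and DPAGT1 counts summed, an alternative chosen after the data were seen, the log2 fold changes were -0.80 with ATRA (adjusted p = 1.69e-17), -0.22 under CDK4/6i and -2.05 under both drugs, so that the size of the H2AX fall and its lack of a call with ATRA rest on the counts assigned to H2AX alone.

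A list of 13 genes around H2AX phosphorylation held kinases, readers, the phosphatase PPM1D and repair factors. Of these 13, all tested, 2 rose and 9 fell with CDK4/6i+ATRA, with a median log2 fold change of -0.54 and a share called near the 81.7% of all tested genes. BRCA1, a repair ubiquitin ligase, fell from 132 ± 4.49 to 6.60 ± 0.384 CPM (log2 fold change -4.32), MRE11, the nuclease of the MRN complex, from 81.0 ± 1.48 to 14.5 ± 1.09 CPM, and PRKDC, the DNA-dependent kinase, from 680.1 ± 38.8 to 171 ± 5.26 CPM (SD, n = 3). MDC1, which binds phosphorylated H2AX directly, was listed on 8 contigs and was counted at 2.30 CPM in non-treated and 0.435 CPM in CDK4/6i+ATRA-treated cells. With ATRA alone 3 of the 13 rose and 5 fell, near the 67.6% of all tested genes called, and with CDK4/6i alone 3 rose and 9 fell, where 28.3% of all tested genes rose and 27.9% fell.

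MACROH2A1 fell mainly when the drugs were combined. It lies on chromosome 5 at 135334381-135399887 (minus strand, 13 exon blocks of 2755 bases). The level of MACROH2A1 was 196, 202 and 191 CPM in non-treated libraries, 178, 189 and 191 with ATRA, 159, 148 and 150 under CDK4/6i and 84.4, 88.1 and 89.1 under both drugs. The ATRA libraries overlapped the non-treated ones, and the other groups did not. MACROH2A1 fell with CDK4/6i (log2 fold change -0.37, SE 0.039, adjusted p = 2.28e-11) and to 0.444 of its non-treated level with CDK4/6i+ATRA (log2 fold change -1.17, SE 0.044, adjusted p = 3.77e-29). With ATRA its log2 fold change was -0.077 (SE 0.039, adjusted p = 0.0754), which passed the threshold without non-treated replicate 3 (adjusted p = 0.0412) or ATRA replicate 3 (adjusted p = 0.0462). The antisense gene PITX1-AS1 shares 175 of its bases and had 626 counts in all libraries against 30501, and the strand setting of the counting is not given in the sources used here.

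MACROH2A2, on chromosome 10 at 70052846-70112282, and H2AJ, on chromosome 12 at 14774405-14778002, had 0 counts in each of the 12 libraries. The limit that a count of 0 allows (3 counts) was 0.156 to 0.275 TMM-scaled CPM per library, so expression above that was not detected in any group. The neighbours SAR1A (22233 counts) and TYSND1 (2296) of MACROH2A2 and WBP11 (22010) of H2AJ were counted, while H4-16, next to H2AJ, had 3 counts. MACROH2A1 was thus the source of all macroH2A counts in all libraries, and no test of its share was possible.

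H1-10, the linker histone variant gene, rose with ATRA and fell with CDK4/6i. It is a single-exon gene on chromosome 3 at 129314771-129316286 (minus strand, 1516 bases). The level of H1-10 was 255, 247 and 245 CPM in non-treated libraries, 367, 345 and 349 with ATRA, 76.4, 71.2 and 69.9 under CDK4/6i and 116, 120 and 112 under both drugs. No 2 groups overlapped, and in each background the libraries with ATRA were higher than those without it. H1-10 rose 1.42-fold with ATRA (log2 fold change 0.51, SE 0.037, adjusted p = 3.69e-17) and 1.60-fold when ATRA was added to CDK4/6i (log2 fold change 0.68, SE 0.046, adjusted p = 1.24e-18). It fell to 0.292 of its non-treated level with CDK4/6i (log2 fold change -1.78, SE 0.042, adjusted p = 8.00e-37) and to 0.466 with CDK4/6i+ATRA (log2 fold change -1.10, SE 0.042, adjusted p = 5.43e-29). Its fall was larger with CDK4/6i alone than with both drugs, the reverse of H2AZ1, H2AZ2, H2AX and MACROH2A1.

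The 3 comparisons with non-treated cells share the same 3 control libraries, and their values are set side by side. With ATRA alone 4 of the 7 tested genes were called, 3 higher (H3-3A, H2AZ2 and H1-10) and 1 lower (H2AZ1), where 67.6% of all tested genes were called (32.1% higher and 35.5% lower). The libraries did not overlap for these same 4 genes, against 70.3% of all tested genes (33.3% higher and 37% lower). With CDK4/6i alone all 7 were lower, where 56.2% of all tested genes were called (28.3% higher and 27.9% lower). The groups did not overlap for any of the 7, against 60.7% of all tested genes (30.8% higher and 29.9% lower). With CDK4/6i+ATRA 2 were higher (H3-3A and H3-3B, of which H3-3B turned to lower by library size alone) and 5 lower, where 81.7% were called, 41% higher and 40.7% lower. Again no member overlapped, against 81.8% of all tested genes without overlap (41.1% higher and 40.8% lower). H2AX with CDK4/6i ranked at 1.42% of all tested genes from the lowest log2 fold change, H1-10 at 2.49%, H2AZ1 at 2.98% and H2AZ2 at 6.18%. With CDK4/6i+ATRA the corresponding ranks were 2.85% for H2AX, 6.81% for H2AZ1, 10.3% for H2AZ2, 20.4% for MACROH2A1 and 21.7% for H1-10.

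ATRA given on top of CDK4/6i changed all 7 tested genes, where 78.6% of all tested genes were called (39.1% higher and 39.5% lower) and 78.9% did not overlap (39% higher and 39.9% lower). H3-3A (log2 fold change 0.67), H1-10 (0.68) and H3-3B (0.36) were higher, and H2AX (-1.66), H2AZ2 (-1.05), H2AZ1 (-0.99) and MACROH2A1 (-0.80) were lower in CDK4/6i+ATRA-treated than in CDK4/6i-treated cells. By library size alone the 3 positive values were smaller, at 0.39 for H3-3A, 0.40 for H1-10 and 0.079 for H3-3B (adjusted p = 0.025 in edgeR), where the median of all genes was -0.28. Conversely, CDK4/6i on top of ATRA changed all 7, where 69.8% of all tested genes were called (36.9% higher and 32.8% lower) and 71.9% did not overlap (37.9% higher and 33.9% lower). H2AX (-3.91), H2AZ1 (-2.48), H2AZ2 (-2.14), H1-10 (-1.61) and MACROH2A1 (-1.09) were lower. The positive values of H3-3A (0.20, adjusted p = 5.16e-05) and H3-3B (0.13, adjusted p = 0.00253) turned to -0.10 (adjusted p = 0.0119) and -0.18 (adjusted p = 6.44e-06) by library size alone, where the median of all genes was -0.26, and H3-3B was not called when only these 2 groups were fitted (log2 fold change 0.06, adjusted p = 0.183).

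The effects of the 2 drugs did not add on the log2 scale. The interaction, the log2 fold change with both drugs minus the sum of those with each drug alone, passed the threshold for all 7 tested genes, where 51.4% of all tested genes were called, 24.5% positive and 27% negative. It was negative for H2AX (-1.64, SE 0.37, adjusted p = 0.000162), H2AZ2 (-1.15, SE 0.057, adjusted p = 4.53e-23), H2AZ1 (-0.85, SE 0.064, adjusted p = 3.21e-16) and MACROH2A1 (-0.73, SE 0.059, adjusted p = 4.98e-15), which were lower with both drugs than the sum of the separate effects. H2AZ2, for example, had a sum of separate effects of -0.88 and an observed value of -2.03. For H3-3A (0.33, adjusted p = 1.09e-05) and H3-3B (0.36, adjusted p = 1.15e-07) the interaction was positive, but by library size alone it was 0.0092 and 0.042 and was not called (adjusted p = 0.896 and 0.448), where the median of all genes was -0.34. That of H1-10 (0.17, adjusted p = 0.0138) turned to -0.15 (adjusted p = 0.0242) by library size alone. It also lost its call without non-treated replicate 1, ATRA replicate 2, CDK4/6i replicate 2, CDK4/6i replicate 3 or CDK4/6i+ATRA replicate 2 (adjusted p = 0.0516, 0.0544, 0.054, 0.0784 and 0.0685), so that 1 library decided this call.

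**Figure D3:**
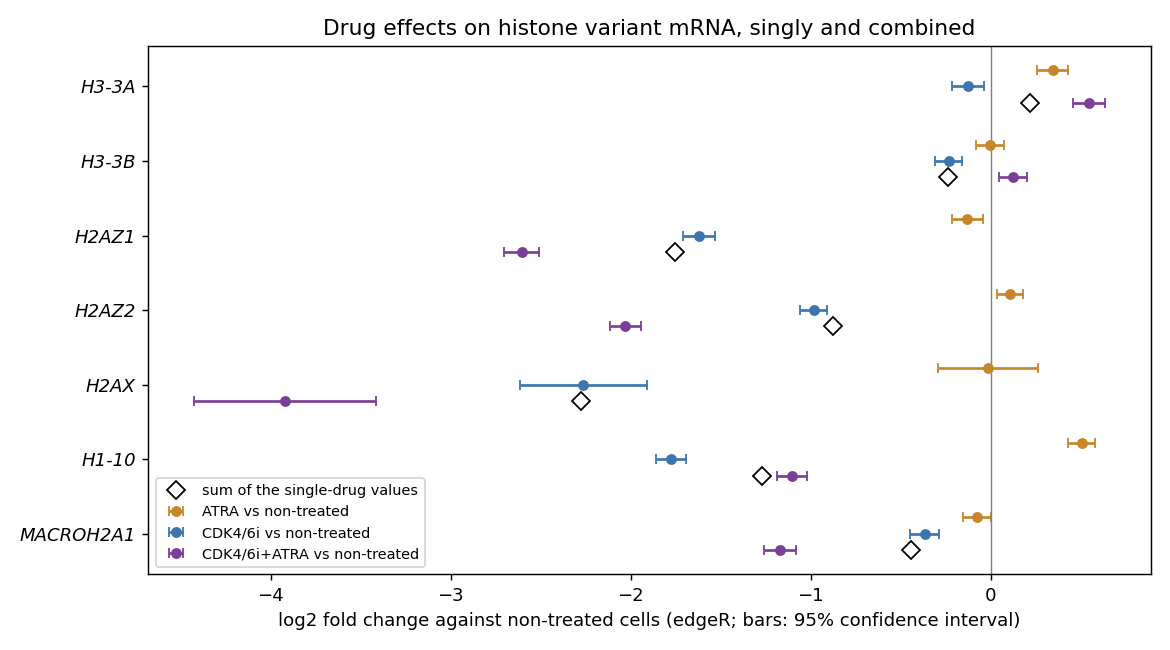
log2 fold change against non-treated cells (x axis, edgeR, bars are 95% confidence intervals) of the 7 tested variant genes with ATRA, CDK4/6i or both drugs, and the sum of the separate values (open diamonds). The values with both drugs lie left of the sum for H2AZ1, H2AZ2, H2AX and MACROH2A1 and right of it for H3-3A, H3-3B and H1-10, of which the last turned and the other two lost the call by library size alone.

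The order of the variant mRNAs per kb of gene model changed with treatment. In non-treated cells H2AZ1 led with 1067 CPM per kb, followed by H3-3A (261), H3-3B (175), H1-10 (164), MACROH2A1 (71.3), H2AZ2 (48.7) and H2AX (5.92, or 47.6 per kb of its unshared bases). With H2AX at its whole-model level, neighbours in this order did not overlap between libraries, and over its unshared bases H2AX overlapped H2AZ2. In ATRA-treated cells H1-10 (233) stood above H3-3B (174), and in CDK4/6i-treated cells H1-10 (47.8) stood below MACROH2A1 (55.2). In CDK4/6i+ATRA-treated cells H3-3A led with 382 CPM per kb, and H3-3B (190.2) and H2AZ1 (175) overlapped between libraries. H1-10 (76.5), MACROH2A1 (31.6), H2AZ2 (11.9) and H2AX (0.389) followed.

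**Figure D4:**
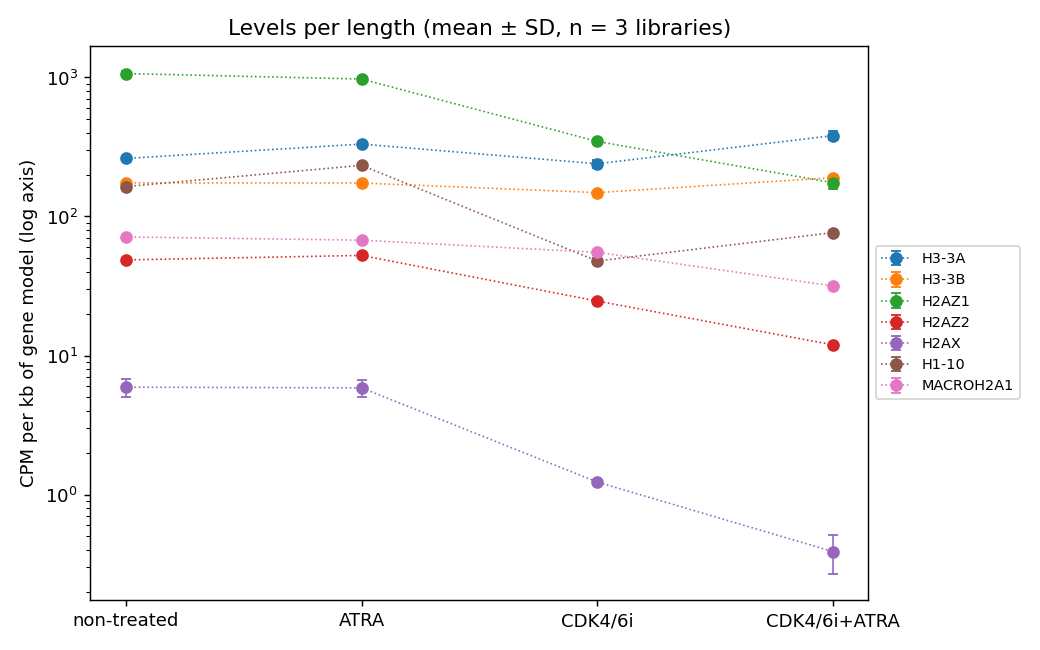
Mean level per kb of gene model (y axis, log scale, bars are SD, n = 3 libraries) of the 7 detected variant genes in the 4 groups, with dotted lines only to follow a gene. H2AZ1 led in 3 groups and fell to the level of H3-3B, below H3-3A, in CDK4/6i+ATRA-treated cells.

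Among the detected H2A variants, counted per kb with H2AX over its unshared bases, H2AZ1 made up 86.4% ± 0.170 in non-treated, 85.4% ± 0.617 in ATRA-treated, 79.4% ± 0.400 in CDK4/6i-treated and 78.9% ± 1.48 in CDK4/6i+ATRA-treated cells (SD, n = 3). MACROH2A1 made up 5.78% ± 0.198, 5.92% ± 0.214, 12.7% ± 0.281 and 14.3% ± 0.721 in the same order. The share of MACROH2A1 was higher in each library with CDK4/6i than in any without it, while its own level was lower there. H2AX made up 3.84% ± 0.420 in non-treated and 1.42% ± 0.464 in CDK4/6i+ATRA-treated cells, but 0.495% ± 0.0560 and 0.179% ± 0.0590 when its counts were divided by its whole gene model, a choice added after the data were seen. With that length H2AZ1 made up 89.4% ± 0.220 and 79.8% ± 1.28, and MACROH2A1 5.98% ± 0.183 and 14.5% ± 0.756 (SD, n = 3).

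Each member was set beside the genes closest to it in pattern. Over the 12 libraries, and among 9299 genes with a mean of at least 5 CPM, the genes whose log2 CPM followed that of H2AZ1 most closely were PKMYT1 (Pearson r = 0.998), an inhibitory kinase of CDK1, EZH2, the H3K27 methyltransferase, and RBL1, the pocket protein p107. For H2AZ2 they were TPX2, a spindle factor (r = 0.999), NCAPD2, a condensin subunit, and CCNB1, the mitotic cyclin B1. For H2AX they were NUSAP1, a spindle protein (r = 0.995), TMEM237 and ORC1, a subunit of the origin recognition complex. For MACROH2A1 they were BLM, a RecQ helicase (r = 0.997), STMN1, a microtubule-destabilizing protein, and MTFR2. These points share 4 groups of 3 libraries, so the r values mostly describe 4 group means and are given without a test. H1-10 was most like CHD4, an ATPase of the NuRD complex (r = 0.994), ARHGAP19 and PAF1. H3-3A was most like PGAM1, an enzyme of glycolysis (r = 0.986), and RAB1B, and H3-3B was most like OAZ1, the ornithine decarboxylase antizyme (r = 0.987), and TATDN2. Between members, r was 0.987 for H2AZ1 and H2AZ2, 0.841 for H3-3A and H3-3B and between -0.596 and 0.990 for the other pairs.

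A list of 20 genes of S phase and mitosis, all tested, fell without exception with CDK4/6i (median log2 fold change -3.05) and with CDK4/6i+ATRA (-5.47), where 27.9% and 40.7% of all tested genes fell, and 9 rose and 8 fell with ATRA, where 67.6% of all tested genes were called (32.1% higher and 35.5% lower). MKI67, the proliferation marker, had 663 ± 38.4 CPM in non-treated, 1028 ± 19.4 in ATRA-treated, 21.0 ± 1.45 in CDK4/6i-treated and 9.82 ± 1.51 in CDK4/6i+ATRA-treated cells (SD, n = 3). CDK1, MCM4 and CDC20 fell by 6.04, 6.05 and 5.99 on the log2 scale with CDK4/6i+ATRA. Under CDK4/6i alone or under both drugs the falls of H2AZ1 and H2AZ2 were in the direction of this list and smaller than its median. Of 12 replication-coupled histone chaperone genes, all tested, 12 fell with CDK4/6i+ATRA (median -3.25), 12 with CDK4/6i (median -1.59) and 11 with ATRA (median -0.29), where 40.7%, 27.9% and 35.5% of all tested genes fell. The remaining gene, ASF1B, rose with ATRA (log2 fold change 0.42). CHAF1B, a subunit of chromatin assembly factor 1, fell from 31.8 ± 2.42 to 0.223 ± 0.311 CPM (a mean below the limit of 3 counts, with 1 library above it), TONSL from 52.3 ± 1.04 to 1.29 ± 0.313, ASF1B from 101 ± 1.25 to 2.59 ± 0.343 and MCM2, a helicase subunit that also binds H3 and H4, from 557 ± 11.2 to 20.2 ± 1.69 CPM. TONSL and ASF1B were listed on 2 contigs each. Of 11 other histone chaperone genes 2 rose and 9 fell with CDK4/6i+ATRA (median -1.71), against 41% and 40.7% of all tested genes. SSRP1, a subunit of FACT, fell from 634 ± 13.1 to 110 ± 9.63 CPM, ANP32B from 475 ± 13.3 to 106 ± 4.23 and NPM3 from 161 ± 3.66 to 37.3 ± 2.69 CPM (SD, n = 3).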

How the data were processed

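RNA-Seq of 12 HL60 libraries was used, with groups taken from the sample titles. According to the paper and the processing notes, the authors trimmed reads with Trimmomatic 0.33 and aligned them with STAR 2.7.11a to hg38 with the NCBI RefSeq annotation. The authors deposited raw gene counts without normalization, in whole numbers, together with gene lengths and exon positions, in the layout of featureCounts (RSEM is the counter named by the paper). For their own tests they used DESeq2.

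The counts were filtered with filterByExpr on the 4 groups, scaled by TMM and tested with the quasi-likelihood F test of edgeR 4.0.16 (R 4.3.3) on a model of the 4 groups (8 residual degrees of freedom), with Benjamini-Hochberg adjustment over 13318 genes and calls at an adjusted p under 0.05. The biological coefficient of variation was 3.70% across genes. SE and intervals are of log2 fold changes. Pair shares were compared by exact permutation of libraries over groups. Correlations used log2(CPM + 0.5). A limit of 3 counts corresponded to 0.156 to 0.275 TMM-scaled CPM per library. Libraries of 1 group differed by more than sampling noise (chi-square over its degrees of freedom 1.85 to 6.81). Gene lists were written from textbook roles. The members, lists and motifs were chosen with earlier results of these data known. All 9 members are named, with at most 4 tested genes per list of largest absolute log2 fold change between CDK4/6i+ATRA and non-treated, as well as the 3 genes of at least 5 CPM most correlated with each member, of which some are not reported here. DPAGT1, H3P6, PITX1-AS1 and the neighbours of genes at 0 were added after their values were seen.

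The results were recomputed with DESeq2 1.42.0 and with its size factors in edgeR, with library size in place of TMM, without a filter or with a minimum of 10 counts per library, with a replicate block, on the compared groups only, with raw counts in place of counts per kb for shares, and leaving out each library. Sums of H2AX with DPAGT1 and of H3-3A with H3P6, and the whole gene model of H2AX for its share of the H2A variants, were chosen after seeing the data. On simulated counts with 200 changed genes, edgeR recovered 176 for ATRA against non-treated cells with 10 false calls, and 160 for the interaction with 4 false calls. Promoter windows came from RefSeq (GRCh38.p14). Figures were drawn with matplotlib 3.10.9.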

Additional observations from a re-analysis of the deposited data

Results flagged for a closer look

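The effect of ATRA differed between cells with and without CDK4/6i for each of the 7 tested variant genes, by the interaction term of edgeR, which was called for 51.4% of all tested genes. The difference (log2 fold change of ATRA in CDK4/6i-treated cells minus that in cells without CDK4/6i) was -1.64 for H2AX, -1.15 for H2AZ2, -0.85 for H2AZ1 and -0.73 for MACROH2A1. It was 0.36 for H3-3B, 0.33 for H3-3A and 0.17 for H1-10. The values of H3-3B and H3-3A were not called and that of H1-10 turned negative by library size alone, and all 4 negative values were called under that scaling too. H2AZ2 moved in opposite directions, with a log2 fold change of 0.11 with ATRA alone and -1.05 when ATRA was added to CDK4/6i. For H2AX the value was -1.02 with the counts of DPAGT1 added.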

How the results depend on the processing

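The number of variant genes called was within 1.5 times of the reported one in all 113 alternatives of the 6 comparisons, and both pair shares kept their direction and call in all 26. Of 797 alternative values for single variant genes, 760 kept direction and call, 16 lost the call, 3 gained it and 18 changed sign. By library size alone, H3-3B changed to -0.14 (CDK4/6i+ATRA against non-treated) and to -0.18 (against ATRA), H3-3A to -0.10 against ATRA and H1-10 to -0.15 in the interaction, a construction that leaves the median of all genes at -0.25 to -0.34. Relative to that median these values were 0.11, 0.083, 0.16 and 0.19. The share of positive calls among all genes also moved with this scaling, from 53% to 31.6% against ATRA, from 49.8% to 36.7% against CDK4/6i and from 47.5% to 18.5% in the interaction. The other changes of sign were in values near 0 that were not called in any of these settings, with ATRA against non-treated cells. H2AX became 0.017 with DESeq2's size factors, 0.027 by library size alone, 0.036 with only the groups compared and 0.017 with DESeq2. H3-3B became 0.028, 0.037, 0.046 and 0.028 in the same order and 0.023 with at least 10 counts in every library. Leaving out 1 library at a time gave -0.13 to 0.11 for H2AX and -0.022 to 0.019 for H3-3B. With no filter, H2AZ2 with ATRA (0.092), H3-3B with CDK4/6i+ATRA against non-treated (0.015) and against ATRA (0.034) and the interaction of H1-10 (0.083) lost their calls. The cause was not tested. With at least 10 counts in every library H2AX was not tested.

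Replicate numbers did not pair the libraries, since none of 18 correlations between same-numbered libraries was over 0.1 (-0.089 to 0.055). With the replicate block the variant genes called numbered 4 with ATRA, 7 with CDK4/6i and 7 in each of the other 4 comparisons, as without it, and the block changed no call of a variant gene. Leaving out 1 library at a time left 3 to 5 called with ATRA, 6 to 7 with CDK4/6i, 6 to 7 in the interaction and 7 in the others. The macroH2A share could not be tested, since MACROH2A2 had no count. Depth limits H2AX, with 5 to 9 counts per CDK4/6i+ATRA library.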

Other observations

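Replication-dependent histone genes, which the variant genes complement, mostly had too few counts to be tested. Of 58 core histone genes, 43 had counts, 15 had none and 10 passed the filter, some of them only through the group where they were high, so that no tally over those 10 is given. Such mRNAs mostly lack a poly(A) tail, and whether poly(A) RNA was selected is not given. The levels below may therefore cover only part of these mRNAs, which was not tested. H2BC12 rose from 7.19 ± 0.873 CPM in non-treated to 58.5 ± 3.22 CPM in CDK4/6i+ATRA-treated cells (SD, n = 3), with 9.72 ± 1.12 with ATRA and 15.6 ± 1.39 with CDK4/6i. H2AC6 rose from 0.931 ± 0.465 to 8.89 ± 0.797 CPM and H2BC5 from 0.913 ± 0.203 to 5.64 ± 0.723 CPM. H2BC18, which passed the filter through the non-treated group where it was high, had 1.16 ± 0.405 CPM there and 0.060 ± 0.0522 CPM with CDK4/6i+ATRA, below the limit of 3 counts. Of 5 replication-dependent linker histone genes 2 were tested. H1-4 had 0.938 ± 0.130 CPM in non-treated and 0.400 ± 0.242 CPM in CDK4/6i+ATRA-treated cells and passed the filter through the groups where it was high, and H1-2 had 5.25 ± 1.34 CPM in non-treated and 6.58 ± 0.785 CPM in CDK4/6i+ATRA-treated cells (adjusted p = 0.093).

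Of 19 other replication-independent or tissue-restricted variant genes, 2 were tested. CENPA, the H3 variant of centromeres, fell from 38.4 ± 1.85 CPM in non-treated to 3.01 ± 0.485 with CDK4/6i and 0.808 ± 0.316 CPM with CDK4/6i+ATRA, and was 47.3 ± 1.17 CPM with ATRA (SD, n = 3). H3-5, a retrocopy of H3-3B, had 1.71 ± 0.262 CPM in non-treated and 2.25 ± 0.303 CPM in CDK4/6i+ATRA-treated cells (adjusted p = 0.227), and shares 7.85% of the 50-base stretches of H3-3B.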
